A study of Mus musculus with 13 samples.

Results

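Transcripts of 9 cytokine receptor chains were followed in sorted T cells of B16-F10 melanomas: Il4ra, Il21r, Il27ra, Il6ra, Il6st, Il12rb1, Il12rb2, Il10ra and Ifngr1. They were taken by gene symbol from a table of 12963 genes, and all 9 were present. Each passed the filter on low values (at least 10 normalized reads in at least 2 libraries), as did 12667 genes in all. A normalized read is a deposited value, that is, a read count divided by a size factor of its library, and 1 read was worth between 0.661 and 1.37 of these units. Il7r, whose protein binds IL-7 and shares the common γ chain with the IL-4 and IL-21 receptors, was treated as a partner chain.

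RNA sequencing covered 13 libraries in 5 groups. B16-F10 cells, a mouse melanoma line, had been implanted under the skin of Foxp3EGFP-DTR (Foxp3-EGFP-DTR) mice, in which the endogenous Foxp3 gene drives EGFP together with a human receptor for diphtheria toxin. The toxin (DTx) thus removes regulatory T (Treg) cells throughout the animal and not only in the tumor. Animals of every group carried this allele and a tumor, and they differed in the injection (DTx, or PBS as its control) and in the cell sorted. After PBS, Treg cells (Treg PBS, n = 3), conventional CD4 T (Tconv) cells (CD4 PBS, n = 2) and CD8 T cells (CD8 PBS, n = 2) were sorted, and after DTx, CD4 Tconv cells (CD4 DTx, n = 3) and CD8 T cells (CD8 DTx, n = 3). No group of DTx-treated mice without the receptor allele was analysed here, so an action of the toxin itself and the loss of Treg cells cannot be told apart in these RNA data. The study did give DTx to Foxp3-EGFP mice without the receptor. It reported potent suppressive activity only in CD4 Tconv cells of mice with the receptor, in an assay that did not measure RNA. The age of the mice is not given in the labels. The sources state biological replicates but not how many mice contributed to a library.

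Cytokine receptors of this family signal through paired chains that carry a Janus kinase (JAK), which phosphorylates STAT transcription factors when the cytokine brings the chains together. IL-4 signals through IL-4Rα (Il4ra) and the common γ chain (Il2rg) to STAT6, and IL-12 through the chains of Il12rb1 and Il12rb2 to STAT4. IL-6 binds IL-6Rα (Il6ra) and signals through gp130 (Il6st) to STAT3, IL-27 joins gp130 to its own chain (Il27ra), and IFN-γ needs both Ifngr1, which binds it, and Ifngr2, without which no signal is passed. Naive T cells are known to carry IL-6 and IL-4 receptors, and activated type 1 T cells gain Il12rb2.

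The promoters of 4 chains are shown as examples of chains that rose, fell or moved apart within 1 receptor. Il6ra, which had the largest change, is not shown because all 250 bases of its window lie in an annotated exon, and Il12rb1, which rose most in CD4 cells, has no entry among the promoters. Each is the 250 bases before the RefSeq start site in the GRCm38.p6 build, which differs from the NCBIM37 (mm9) build of the deposited values. They are printed 5′ to 3′ on the strand of the gene, and capitals mark a match to a spaced STAT motif. Il12rb2 was chosen as the chain that rose most in CD8 DTx, Ifngr2 as the chain that fell while its partner Ifngr1 rose, and Il6st as the chain that fell most in CD4 DTx.
Il12rb2, chr6:67376189-67376438, minus strand: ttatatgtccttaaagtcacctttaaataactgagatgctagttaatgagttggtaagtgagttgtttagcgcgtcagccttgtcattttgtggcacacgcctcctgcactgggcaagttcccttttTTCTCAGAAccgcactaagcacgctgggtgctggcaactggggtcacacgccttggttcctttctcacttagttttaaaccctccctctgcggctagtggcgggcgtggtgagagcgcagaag
Ifngr1, chr10:19591699-19591948, plus strand: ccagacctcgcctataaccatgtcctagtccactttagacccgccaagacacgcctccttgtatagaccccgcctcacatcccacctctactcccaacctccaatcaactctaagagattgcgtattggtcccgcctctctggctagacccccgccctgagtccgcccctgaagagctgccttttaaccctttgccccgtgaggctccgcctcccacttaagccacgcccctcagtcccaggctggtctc
Ifngr2, chr16:91546809-91547058, plus strand: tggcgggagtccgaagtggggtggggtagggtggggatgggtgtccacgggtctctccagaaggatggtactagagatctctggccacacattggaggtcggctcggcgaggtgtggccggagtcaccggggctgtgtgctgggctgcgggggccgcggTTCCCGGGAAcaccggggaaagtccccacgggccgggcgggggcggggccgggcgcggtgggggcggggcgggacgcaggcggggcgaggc
Il6st, chr13:112463820-112464069, plus strand: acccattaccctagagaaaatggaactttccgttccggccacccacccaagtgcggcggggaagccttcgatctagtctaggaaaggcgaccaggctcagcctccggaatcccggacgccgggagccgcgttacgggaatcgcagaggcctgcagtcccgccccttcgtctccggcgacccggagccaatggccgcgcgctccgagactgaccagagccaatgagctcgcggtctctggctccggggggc

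Il12rb2 held TTCTCAGAA, which matches the letters TTCNNNGAA, with its first base 123 bases before the start site. Of 32851 promoters of this length 7.02% held that motif. Ifngr2 held TTCCCGGGAA, a match to the STAT6 spacing (TTC and GAA with 4 bases between), with its first base 91 bases before the start site, and 5.85% of promoters held that motif. None of 7 motifs searched on both strands (these 2, the GATA letters AGATAA, the FOXO letters GTAAACA, the cAMP element TGACGTCA in 1.55% of promoters, the AP-1 element TGANTCA in 6.75%, and the interferon element, a pair of GAAA with 2 bases between, in 2.98%) was found in the windows of Ifngr1 or Il6st. Promoter entries were found for 6 of the 9 chains, and the other matches were AGATAA in Il6ra (9.99% of promoters) and GTAAACA in Il21r (3.17%). A match shows that the letters are there and nothing about binding. In the genome Il4ra lies next to Il21r on chromosome 7, and Il12rb2 lies next to Il23r on chromosome 6.

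Libraries held 15947556 to 34140486 reads. The labels were first compared with lineage transcripts. Foxp3 ran from 1178 to 1896 normalized reads in Treg PBS and from 0 to 12.1 in the other 10 libraries, and in CD4 DTx it was at 1.87, 0 and 0. Cd8a was at 103, 711 and 1302 in CD4 DTx replicates 1, 2 and 3, at 26.4 and 31.4 in CD4 PBS, and at 23475 to 48330 in the CD8 libraries. Libraries numbered 3 carried Ddx3y (a Y-linked gene) and no Xist in each of the 5 groups, and those numbered 1 and 2 the reverse, so the replicate number went with the sex of the mice. CD4 PBS 3 and CD8 PBS 3 stood apart from their group in early response genes: Socs3 was at 17050 and 17170 there, against 3479 and 1751 in CD4 PBS 2 and CD8 PBS 2. Treg PBS 3 was likewise the highest of its group, with Socs3 at 584, 701 and 4110 in replicates 1, 2 and 3.

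**Figure D1:**
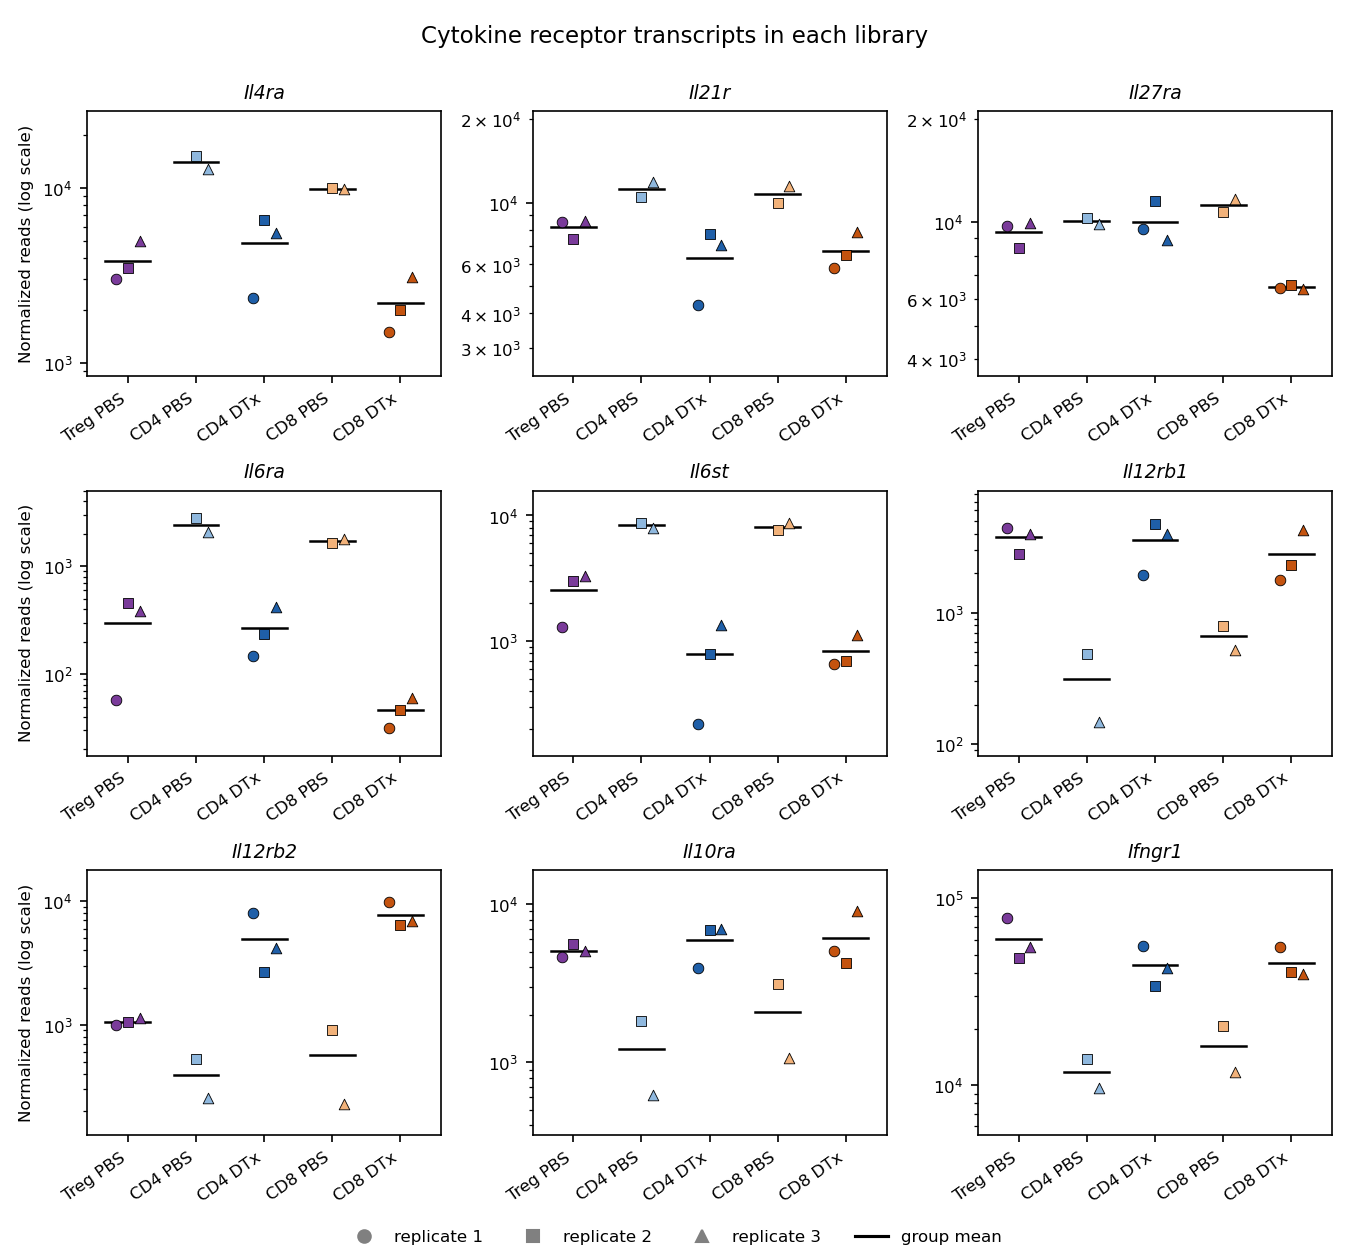
Normalized reads (log scale) of the 9 receptor chains in each of the 13 libraries, by group; symbols are replicates 1, 2 and 3 and black lines group means. In both lineages Il4ra, Il21r, Il6ra and Il6st were lower in every DTx library than in either PBS library, and Il12rb1, Il12rb2, Il10ra and Ifngr1 were higher in every DTx library than in either PBS library of the same lineage.

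In CD4 Tconv cells, Treg ablation by DTx went with a rise of 4 receptor chains and a fall of 4 others. Il12rb1, Il12rb2, Il10ra and Ifngr1 rose by 3.72-fold to 12.4-fold, and Il6st, Il6ra, Il4ra and Il21r fell by 1.82-fold to 13.5-fold. Il27ra, whose log2 fold change was -0.02, was the remaining chain. These 8 of 9 chains passed limma at an adjusted p under 0.05, where 12.7% of all genes tested did (8.64% higher and 4.08% lower). Over 4-fold, 5 chains were called (Il12rb1, Il12rb2, Il6st, Il6ra and Il10ra), against 6.85% of all genes. The libraries of CD4 DTx and CD4 PBS did not overlap for those 8 chains, as was the case for 46.3% of all genes. The median log2 fold change was -0.02 over the 9 chains and -0.04 over all genes tested. In bulk libraries, fewer cells that express a chain and less RNA per cell cannot be told apart, here and in each comparison that follows.

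Calls in CD4 cells depended on the 2 CD4 PBS libraries. Without CD4 PBS 2, 5 chains were called (Il12rb1, Il12rb2, Il10ra, Ifngr1 and Il6st), without CD4 PBS 3 there were 3 (Il12rb1, Il12rb2 and Il6st), and in both fits the lone library was assumed to vary like the other groups. A fit of only CD4 DTx and CD4 PBS called 4 (Il12rb1, Il12rb2, Ifngr1 and Il6ra).

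In CD8 T cells 3 chains rose and 4 fell. Il12rb2, Il12rb1 and Ifngr1 rose by 16.6-fold, 4.01-fold and 2.85-fold, and Il6ra, Il6st, Il4ra and Il27ra fell by 37.7-fold, 10.1-fold, 4.72-fold and 1.73-fold. In limma, 7 of 9 chains were called (3 higher and 4 lower), against 10.9% of all genes (7.40% higher and 3.47% lower). Over 4-fold there were 5 (Il12rb1, Il12rb2, Il6st, Il6ra and Il4ra), against 5.46% of all genes. No chain had overlapping CD8 DTx and CD8 PBS libraries, as was the case for 43.6% of all genes, and the median log2 fold change was -0.68 over the chains and -0.03 over all genes tested. DESeq2 called all 9. Without CD8 PBS 3, or in a fit of only CD8 DTx and CD8 PBS, 2 chains were called (Il12rb2 and Il6ra in the former, Il6ra and Il6st in the latter).

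**Figure D2:**
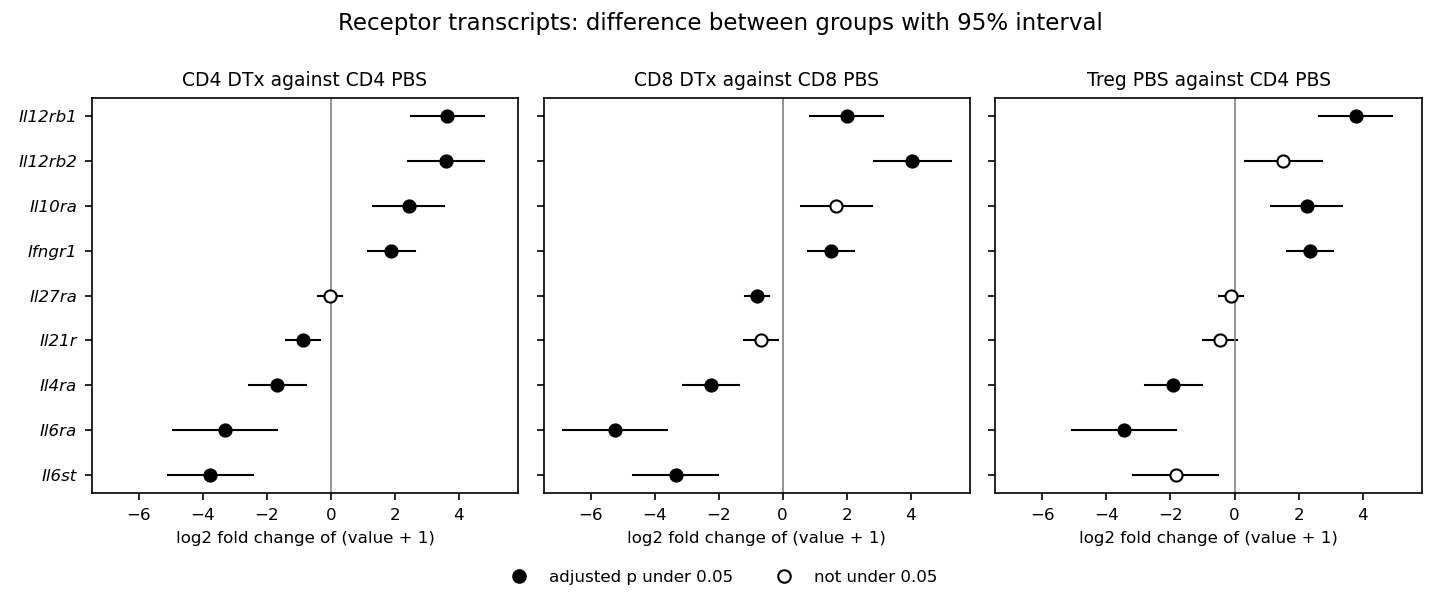
Log2 fold change of (value + 1) with its 95% interval for each chain in 3 comparisons; filled points had an adjusted p under 0.05 in limma. Il12rb1, Il12rb2, Il10ra and Ifngr1 lie to the right of 0 in every panel and Il21r, Il4ra, Il6ra and Il6st to the left, and the left and right panels share the CD4 PBS libraries.

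Among the 9 chains those of the IL-12 receptor had the largest rises. Il12rb1, which IL-12 and IL-23 receptors share, was at 481 and 147 normalized reads in CD4 PBS, against 1944, 4707 and 3991 in CD4 DTx replicates 1, 2 and 3. In CD8 cells it went from 796 and 524 to 1780, 2307 and 4237. The lowest DTx library of either lineage was thus above the highest PBS library, while within CD4 PBS the replicates were far apart. The log2 fold change was 3.64 (SE 0.52, limma adjusted p = 7.38e-04) in CD4 and 2.003 (SE 0.52, limma adjusted p = 0.0295) in CD8 cells. The CD8 call was lost without CD8 PBS 2, CD8 PBS 3, CD8 DTx 2 or CD8 DTx 3, and with values rescaled to equal library totals.

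Il12rb2, the signalling chain that recruits STAT4, was at 527 and 255 in CD4 PBS, against 8049, 2646 and 4135 in CD4 DTx. It was at 912 and 229 in CD8 PBS, against 9871, 6428 and 6944 in CD8 DTx. Replicate 1 was the highest of its group in both lineages after DTx. The log2 fold changes were 3.60 (SE 0.55, limma adjusted p = 0.00111) and 4.05 (SE 0.55, limma adjusted p = 0.00118), and both calls held in each fit that left out 1 library, the CD8 call being lost only in a fit of CD8 DTx and CD8 PBS alone. Treg PBS stood at 995, 1051 and 1138, close together and below every DTx library.

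The proportion of the IL-12 receptor chains, as a description with no test, differed by group. Per kilobase of exon, the level of Il12rb2 was 0.244, 0.4055 and 0.309 times that of Il12rb1 in Treg PBS and 5.999, 3.02 and 1.77 times in CD8 DTx. In CD4 DTx the ratio was 4.48, 0.608 and 1.12, so that replicate 1 held mostly Il12rb2 and replicate 2 mostly Il12rb1. In PBS Tconv cells it was 1.19 and 1.88 (CD4) and 1.24 and 0.474 (CD8).

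**Figure D3:**
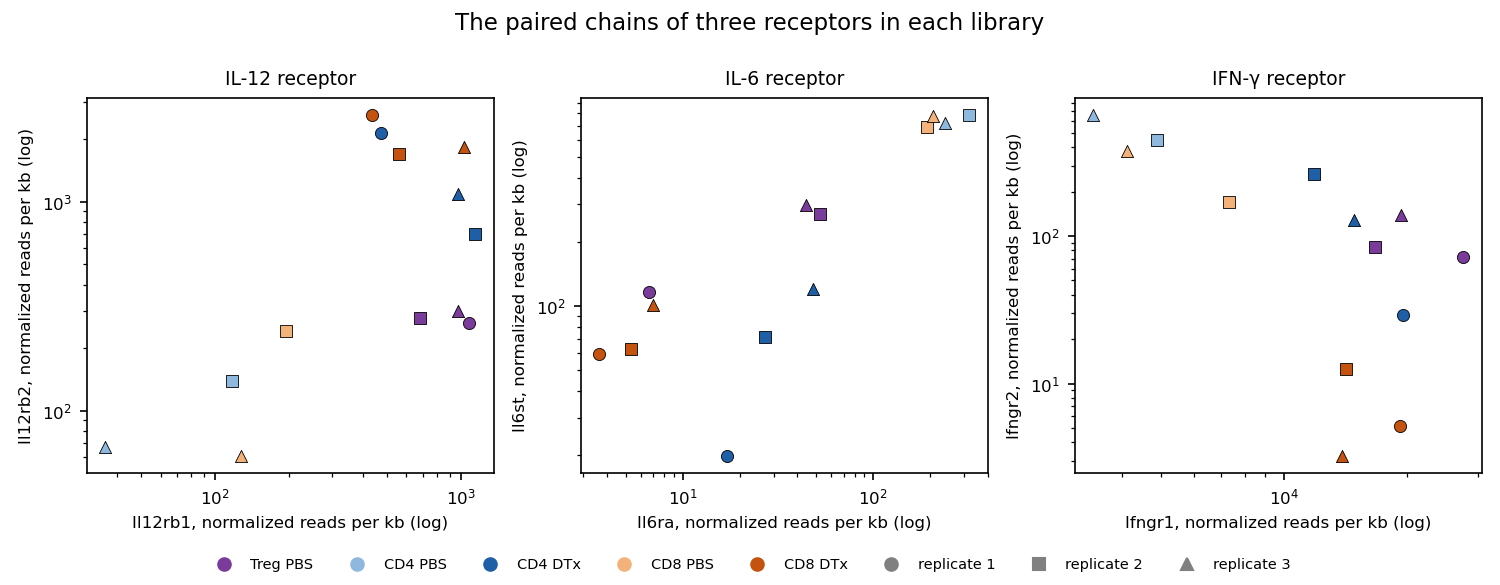
Levels per kilobase of exon (normalized reads per kb, log scales) of the chains of the IL-12, IL-6 and IFN-γ receptors, 1 point per library; colors are groups and symbols replicates. Against PBS libraries of their lineage, DTx libraries are up and to the right for IL-12, down and to the left for IL-6, and down and to the right for IFN-γ.

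Both IL-6 receptor chains fell. Il6ra, the chain that binds IL-6, was at 2780 and 2068 in CD4 PBS, against 148, 233 and 419 in CD4 DTx. In CD8 cells it went from 1654 and 1780 to 31.4, 46.2 and 60.6, the lowest group mean of any chain. CD8 PBS replicates lay close together, and CD8 DTx libraries were all below the lowest CD4 DTx library. The log2 fold changes were -3.29 (SE 0.75, limma adjusted p = 0.012) and -5.24 (SE 0.75, limma adjusted p = 0.00155). The CD4 call was lost without either CD4 PBS library, and the CD8 call held in each fit that left out 1 library. The highest group mean (CD4 PBS) was 52.6 times the lowest (CD8 DTx), the widest range among the 9 chains.

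Il6st, which encodes gp130, the signalling chain of IL-6 and IL-27, was at 8750 and 7971 in CD4 PBS, against 219.8, 796 and 1334 in CD4 DTx. It was at 7639 and 8676 in CD8 PBS, against 662, 701 and 1123 in CD8 DTx. Both PBS Tconv groups were tight and overlapped each other, and the DTx groups overlapped each other at a level well below them. The log2 fold changes were -3.76 (SE 0.61, limma adjusted p = 0.00161) and -3.34 (SE 0.61, limma adjusted p = 0.00518), and the CD8 call was lost without CD8 PBS 3.

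Il27ra, the partner of gp130 for IL-27, behaved apart from Il6st. It was at 10255 and 9913 in CD4 PBS, against 9554, 11562 and 8865 in CD4 DTx, overlapping ranges with a log2 fold change of -0.02 (95% interval -0.39 to 0.35, limma adjusted p = 0.955). In CD8 cells it fell from 10716 and 11682 to 6421, 6566 and 6412. This log2 difference of -0.79 (SE 0.17) passed (limma adjusted p = 0.0117), which was lost without either CD8 PBS library. CD8 DTx was the tightest group of this chain and lay below every other library in the study.

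Il4ra, the IL-4 binding chain, was at 15303 and 12894 in CD4 PBS, against 2339, 6551 and 5555 in CD4 DTx. It was at 10016 and 9823 in CD8 PBS, against 1501, 1994 and 3092 in CD8 DTx. Replicate 1 was the lowest of its group in both lineages after DTx, and no DTx library reached a PBS library of its lineage. The log2 fold changes were -1.67 (SE 0.41, limma adjusted p = 0.0177) in CD4 and -2.24 (SE 0.41, limma adjusted p = 0.00517) in CD8 cells, lost without either CD4 PBS library and without CD8 PBS 3, respectively. Group means ran from CD4 PBS through CD8 PBS, CD4 DTx and Treg PBS to CD8 DTx, a range of 6.42 times, and the libraries of the last 3 groups overlapped their neighbors in that order.

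Il21r, the IL-21 binding chain and the neighbor of Il4ra on chromosome 7, moved less. It was at 10527 and 11848 in CD4 PBS, against 4277, 7695 and 7022 in CD4 DTx, and at 9972 and 11495 in CD8 PBS, against 5840, 6481 and 7879 in CD8 DTx. Its group means spanned 1.77 times. The CD4 log2 fold change was -0.86 (SE 0.24, limma adjusted p = 0.0366), a call lost without either CD4 PBS library or without CD4 DTx 1. The CD8 log2 fold change of -0.68 (95% interval -1.21 to -0.15) did not pass (limma adjusted p = 0.0979).

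Il10ra, which binds IL-10 and signals with Il10rb to STAT3, was at 1816 and 621 in CD4 PBS, against 3937, 6832 and 7012 in CD4 DTx. It was at 3109 and 1072 in CD8 PBS, against 5078, 4270 and 9125 in CD8 DTx. In both lineages PBS replicate 3 was the lower library, and the DTx libraries of each lineage overlapped Treg PBS (4605, 5584 and 5038). The CD4 log2 fold change was 2.43 (SE 0.51, limma adjusted p = 0.00779), a call lost without CD4 PBS 3. The CD8 value of 1.67 (95% interval 0.56 to 2.79) had a limma adjusted p of 0.0562, and it passed without CD8 PBS 2, with a pseudocount of 10, with DESeq2 (adjusted p = 0.0199) and with the replicate block in limma (adjusted p = 0.0323).

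Ifngr1, the IFN-γ binding chain, was the most abundant of the 9 per kilobase of exon, at 21210 normalized reads per kb in Treg PBS (mean, n = 3) and 4132 in CD4 PBS (mean, n = 2). It was at 13853 and 9673 normalized reads in CD4 PBS, against 55849, 33771 and 42259 in CD4 DTx. CD8 cells went from 20807 and 11713 to 55011, 40486 and 39494. The DTx libraries of both lineages overlapped each other and Treg PBS. The log2 fold changes were 1.89 (SE 0.33, limma adjusted p = 0.00267) and 1.51 (SE 0.33, limma adjusted p = 0.0131), lost without CD4 PBS 3 and without CD8 PBS 3.

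The other chain of the IFN-γ receptor went the opposite way. Ifngr2 was at 1692 and 2499 in CD4 PBS, against 110.3, 992 and 481 in CD4 DTx, and at 645 and 1413 in CD8 PBS, against 19.4, 47.2 and 12.1 in CD8 DTx, where it rested on 21, 49 and 9 recovered reads. All DTx libraries lay below the PBS libraries of their lineage. The CD8 log2 fold change was -5.35 (SE 0.80, limma adjusted p = 0.00186), and it missed the threshold only in a fit of CD8 DTx and CD8 PBS alone. The CD4 value of -2.45 (SE 0.80) did not pass (limma adjusted p = 0.0666), although it did without CD4 DTx 2 (limma adjusted p = 0.0258). Per kilobase of exon Ifngr1 exceeded Ifngr2 by 5.12 and 10.8 times in CD4 PBS, by 45.05 to 669.7 times in CD4 DTx, by 42.7 and 10.97 times in CD8 PBS, by 1135 to 4314 times in CD8 DTx and by 138 to 384 times in Treg PBS. The CD8 groups lay far apart in this ratio, while CD8 PBS 2 nearly reached the lowest CD4 DTx library. Ifngr2 was also lower in CD8 DTx than in CD4 DTx (log2 difference 4.004, SE 0.72, limma adjusted p = 0.0196).

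Whether DTx moved the chains differently in CD4 and CD8 cells was tested as an interaction. In limma 0 of 9 chains passed, against 0.0474% of all genes; at an unadjusted p under 0.05 there were 2 (Il27ra and Il12rb1), edgeR called 0 and DESeq2 called 1 (Il27ra, adjusted p = 0.0303). The Il27ra interaction was 0.77 (95% interval 0.25 to 1.29, limma adjusted p = 0.634), and that of Il12rb1 was 1.63 (95% interval 0.03 to 3.24, limma adjusted p = 1). These intervals are wide, with 2 PBS libraries in each lineage. CD4 DTx and CD8 DTx were also compared directly. In limma 0 of 9 chains passed, against 1.64% of all genes; 3 were under 0.05 unadjusted, edgeR called 0 and DESeq2 called 2 (Il27ra and Il6ra). Same-numbered DTx libraries deviated together, but a fit that paired only these was not run. The replicate number was fitted in limma as a block over all 13 libraries, which includes groups where it was not taken to pair libraries. With that block 3 chains passed, each higher in CD4 DTx. They were Il6ra (log2 difference 2.43 in the fit without the block, block adjusted p = 0.0162), Il4ra (1.07, block adjusted p = 0.0318) and Il27ra (0.62, block adjusted p = 0.0428). Without the block, limma gave these 3 adjusted p-values of 0.109, 0.224 and 0.072.

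In Treg-sufficient tumors 5 chains differed between Treg and CD4 Tconv cells. Il12rb1 (log2 difference 3.78, SE 0.52, limma adjusted p = 3.91e-04), Ifngr1 (2.35, SE 0.33, limma adjusted p = 4.63e-04) and Il10ra (2.25, SE 0.51, limma adjusted p = 0.00876) were higher in Treg PBS than in CD4 PBS. Il6ra (-3.46, SE 0.75, limma adjusted p = 0.00662) and Il4ra (-1.91, SE 0.41, limma adjusted p = 0.00624) were lower. These 5 of 9 calls stood against 20.4% of all genes (13.5% higher and 6.91% lower), and 4 of them exceeded 4-fold, against 10.2%. Without CD4 PBS 2, 3 were called (Il12rb1, Ifngr1 and Il10ra), and DESeq2 called 7, with Il6st and Il12rb2 besides. Il6st, at 1286, 3013 and 3293 in Treg PBS, missed the threshold (limma adjusted p = 0.051), as did Il12rb2 (limma adjusted p = 0.0689). This comparison and the CD4 DTx comparison share the CD4 PBS libraries. Against CD8 PBS, 4 of 9 chains were called in Treg PBS, Il12rb1 and Ifngr1 higher and Il6ra and Il4ra lower, where 18.7% of all genes were (11.9% higher and 6.75% lower); without CD8 PBS 3 only Ifngr1 was.

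Set directly against Treg PBS, limma called 1 of 9 chains in CD4 DTx and 2 of 9 in CD8 DTx. Unadjusted limma p-values were under 0.05 for 2 and 5 chains, and for 2721 and 2472 of the 12667 genes tested. Il12rb2 was higher in CD4 DTx (log2 difference 2.07, SE 0.49, limma adjusted p = 0.0234), the sole call among 9, against 7.91% of all genes. Among the fits that left out 1 library of these groups, this call held without CD4 DTx 2 and was lost in the other 5. Il6st was lower there with a limma adjusted p of 0.0507, and it passed without CD4 DTx 3 or Treg PBS 1, with DESeq2 (adjusted p = 0.0113) and with the replicate block in limma (adjusted p = 0.00338). In CD8 DTx, Il12rb2 (2.84, SE 0.49, limma adjusted p = 0.00318) was higher than in Treg PBS and Il27ra (-0.53, SE 0.15, limma adjusted p = 0.0498) lower, 2 of 9 against 8.60% of all genes. The Il27ra call was lost in each fit that left out 1 library of these groups. With the replicate block in limma, Il6ra (adjusted p = 0.00707), Il6st (adjusted p = 0.00936) and Il4ra (adjusted p = 0.0355) were also lower in CD8 DTx than in Treg PBS, and DESeq2 called Il6ra and Il6st as well. For Il12rb1, Il10ra and Ifngr1 the DTx libraries of each lineage overlapped Treg PBS, with 95% intervals of the log2 difference in CD4 DTx of -1.16 to 0.87, -0.81 to 1.17 and -1.10 to 0.19. CD4 PBS and CD8 PBS differed in 0 of 9 chains in limma, against 1.08% of all genes; 1 (Il12rb1) was under 0.05 unadjusted, and edgeR and DESeq2 called 0.

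Among 10 partner and related chains, 3 rose and the other 7 did not pass in CD4 DTx in limma. In CD8 DTx 2 rose, 1 (Ifngr2) fell and 7 did not pass. Of all genes, limma called 12.7% (CD4) and 10.9% (CD8). Counts by edgeR and DESeq2, in either direction, were 3 and 4 in CD4 DTx (Ifngr2 besides with DESeq2) and 3 and 3 in CD8 DTx. The median log2 fold change of the 10 chains was 0.61 in CD4 and -0.13 in CD8 cells, against -0.04 and -0.03 over all genes. Il18rap, a chain of the IL-18 receptor, was at 1178 and 656 in CD4 PBS, against 14125, 7900 and 9363 in CD4 DTx (log2 fold change 3.53, SE 0.37, limma adjusted p = 1.52e-04). CD8 cells went from 2998 and 1414 to 13556, 12693 and 13783 (2.69, SE 0.37, limma adjusted p = 0.00118). Its partner Il18r1 rose as well, by 2.24 (limma adjusted p = 0.00112) in CD4 and 1.64 (limma adjusted p = 0.0102, lost without CD8 PBS 3) in CD8 cells on the log2 scale. Il15ra, which presents IL-15, passed in CD4 cells (1.11, limma adjusted p = 0.0486) and lost that call without CD4 PBS 2, CD4 PBS 3, CD4 DTx 2 or CD4 DTx 3.

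Il7r was at 21819 and 15339 in CD4 PBS, against 22612, 12390 and 13718 in CD4 DTx, overlapping ranges (log2 fold change -0.22, limma adjusted p = 0.676). In CD8 cells it was at 16930 and 11987 after PBS, against 10722, 10702.5 and 7474 after DTx, each below both PBS libraries, and did not pass in limma. It was lower in Treg PBS, at 4870, 7465 and 6383, than in CD4 PBS (log2 difference -1.57, SE 0.31, limma adjusted p = 0.00355). The common γ chain Il2rg was at 23500 and 25041 in CD4 PBS, against 55842, 38196 and 32348 in CD4 DTx. In CD8 cells it was at 23860 and 23513, against 44574, 46879 and 23014. Il10rb was at 1382 and 1369 in CD4 PBS, against 2217, 1945 and 1582 in CD4 DTx, and at 2701 and 2483 in CD8 PBS, against 3619, 3181 and 2630 in CD8 DTx. Although Il2rg had an unadjusted limma p under 0.05 in CD4 cells, Il2rg and Il10rb did not pass in either lineage. Neither did Il9r, Il13ra1 and Il23r, which were at or under 50.1 normalized reads in every CD8 DTx library, with Il13ra1 at 0 in all 3. In CD4 cells Il9r was at 245 and 108 in CD4 PBS, against 357, 678 and 440 in CD4 DTx. Limma called Il9r higher in CD4 DTx than in CD8 DTx.

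Of 12 ligands of these receptors, 6 were in the table and tested. Over all genes, limma called 12.7% (CD4) and 10.9% (CD8). Of the ligands, limma called 3 (Il4, Ebi3 and Ifng) higher in CD4 DTx and 2 (Il4 and Ifng) higher in CD8 DTx, and the others did not pass. DESeq2 called 5 in CD4 DTx, with Il10 and Il21 besides, and 3 in CD8 DTx, with Il21 besides. The median log2 fold change was 3.70 in CD4 and 3.68 in CD8 cells, or 3.88 and 2.62 with ligands whose reference group was at or under 3 reads per library set to the bound that this floor gives. Il4 was at 1.37 and 0.661 normalized reads, 1 read each, in CD4 PBS, at 256, 718 and 442 in CD4 DTx (limma adjusted p = 5e-04), and at 13.9, 40.4 and 16.2 in CD8 DTx against 0 and 0 in CD8 PBS (limma adjusted p = 0.0167, lost without either CD8 PBS library or CD8 DTx 2). The transcript of this ligand rose in the sorted populations in which that of its receptor chain Il4ra fell. Whether both changes took place in the same cells was not tested. Ifng was at 297 and 479 in CD4 PBS, against 2212, 1085 and 1638 in CD4 DTx (limma adjusted p = 0.0307), and at 758 and 681 in CD8 PBS, against 9423, 2672 and 3401 in CD8 DTx (limma adjusted p = 0.0116). Both Ifng calls were lost without either PBS library of the lineage, and the CD4 call also without CD4 DTx 1 or CD4 DTx 3. Ebi3, a subunit of IL-27, was at 45.1 and 21.8 in CD4 PBS, at 677, 511 and 590 in CD4 DTx (limma adjusted p = 0.00155) and at 2449, 2283 and 2613 in Treg PBS.

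Of 11 JAK and STAT genes, the kinases and factors below the receptors, 1 rose in CD4 DTx and 10 did not pass in limma, a share near the 12.7% of all genes called there. In CD8 DTx limma and edgeR called 0, DESeq2 called 1 and 1 was under 0.05 unadjusted, each time Stat4. The medians were 0.11 and -0.23 on the log2 scale. Stat4, which carries the IL-12 signal, went from 4163 and 4222 to 18876, 10232 and 9304 in CD4 cells (log2 fold change 1.54, SE 0.35, limma adjusted p = 0.0124, lost without either CD4 PBS library). In CD8 cells it was at 7205 and 6245 and at 15828, 20078 and 9034 (1.08, SE 0.35, limma adjusted p = 0.0687). Among 10 feedback genes 2 rose in both lineages and 8 did not pass in limma, where 12.7% (CD4) and 10.9% (CD8) of all genes were called. In CD8 cells edgeR called 3 of them and DESeq2 5 (Socs3, Socs5 and Ptpn11 besides Cish and Socs2), in either direction. Of the added genes, Socs3 and Socs5 were lower in CD8 DTx than in CD8 PBS and Ptpn11 was higher. Socs3 was at 1751 and 17170 in CD8 PBS, against 485, 672 and 805 in CD8 DTx. Cish, a STAT5-induced inhibitor, rose by 2.47 and 2.98 on the log2 scale (limma adjusted p = 1.52e-04 and 1.21e-04) and Socs2 by 4.03 and 4.42 (6.66e-04 and 9.52e-04). The median of this list was -0.03 in CD4 and -0.10 in CD8 cells.

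Of 18 genes induced by IFN-γ, 15 were tested. In CD4 DTx 7 rose and 8 did not pass (median log2 fold change 1.07), and in CD8 DTx 3 rose and 12 did not pass (median 0.42), all in limma, where 12.7% and 10.9% of all genes were called. Counts by edgeR and DESeq2, in either direction, were 5 and 7 in CD4 DTx and 2 and 6 in CD8 DTx. The PBS reference libraries were far apart for some of these genes. Irf1, which did not pass in limma, was at 10133 and 34596 in CD4 PBS 2 and 3. In CD8 PBS 2 and 3 it was at 10344 and 28220. The DESeq2 calls in CD8 DTx included Cxcl10, whose mean was lower there. It was at 98.4 and 1012 in CD8 PBS, against 123, 34.7 and 83.5 in CD8 DTx. Gbp3, a guanylate-binding protein, went from 667 and 782 to 2834, 2294 and 2081 in CD4 and from 1126 and 1133 to 3472, 2933 and 2945 in CD8 cells (limma adjusted p = 5.52e-04 and 0.00249). Irf8 rose by 1.73 and 1.49 on the log2 scale (limma adjusted p = 0.0111 and 0.0292) and Gbp7 by 1.32 and 1.12 (limma adjusted p = 0.00401 and 0.0139), calls that were lost when single PBS libraries were left out. Iigp1 rose in CD4 cells by 1.46 (limma adjusted p = 0.0355), a call lost without CD4 PBS 2 or any CD4 DTx library, and was at 402 and 808 in CD8 PBS, against 584, 352 and 485 in CD8 DTx.

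Of 12 genes known as targets of STAT3, STAT4 or STAT6, 11 were tested. In limma 5 rose in CD4 DTx (Maf, Tbx21, Gata3, Prdm1 and Batf, median log2 fold change 1.16). In CD8 DTx 3 rose (Prdm1, Tbx21 and Batf) and 1 fell (Junb), with a median of 0.83. Of all genes, limma called 12.7% (CD4) and 10.9% (CD8). Counts by edgeR and DESeq2, in either direction, were 5 and 6 in CD4 DTx and 4 and 6 in CD8 DTx. Tbx21, the type 1 factor that acts with STAT4 in inducing Il12rb2, went from 681 and 347 to 3983, 4220 and 5764 in CD4 cells (3.24, SE 0.43, limma adjusted p = 5e-04). CD8 cells went from 1979 and 1008 to 6250, 9606 and 9897 (2.57, SE 0.43, limma adjusted p = 0.00329, lost without CD8 PBS 3). Maf rose in CD4 cells by 3.56 (SE 0.38, limma adjusted p = 1.58e-04) and Prdm1 in CD8 cells by 3.14 (SE 0.52, limma adjusted p = 0.00329). The Prdm1 call in CD4 cells (1.85, limma adjusted p = 0.0365) was lost in each fit that left out 1 library of CD4 PBS or CD4 DTx. Junb fell by 2.67 in CD8 cells (SE 0.74, limma adjusted p = 0.0371), with CD8 PBS 3 at 56238 and CD8 PBS 2 at 12162, and lost that call without CD8 PBS 3, CD8 DTx 1 or CD8 DTx 2.

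**Figure D4:**
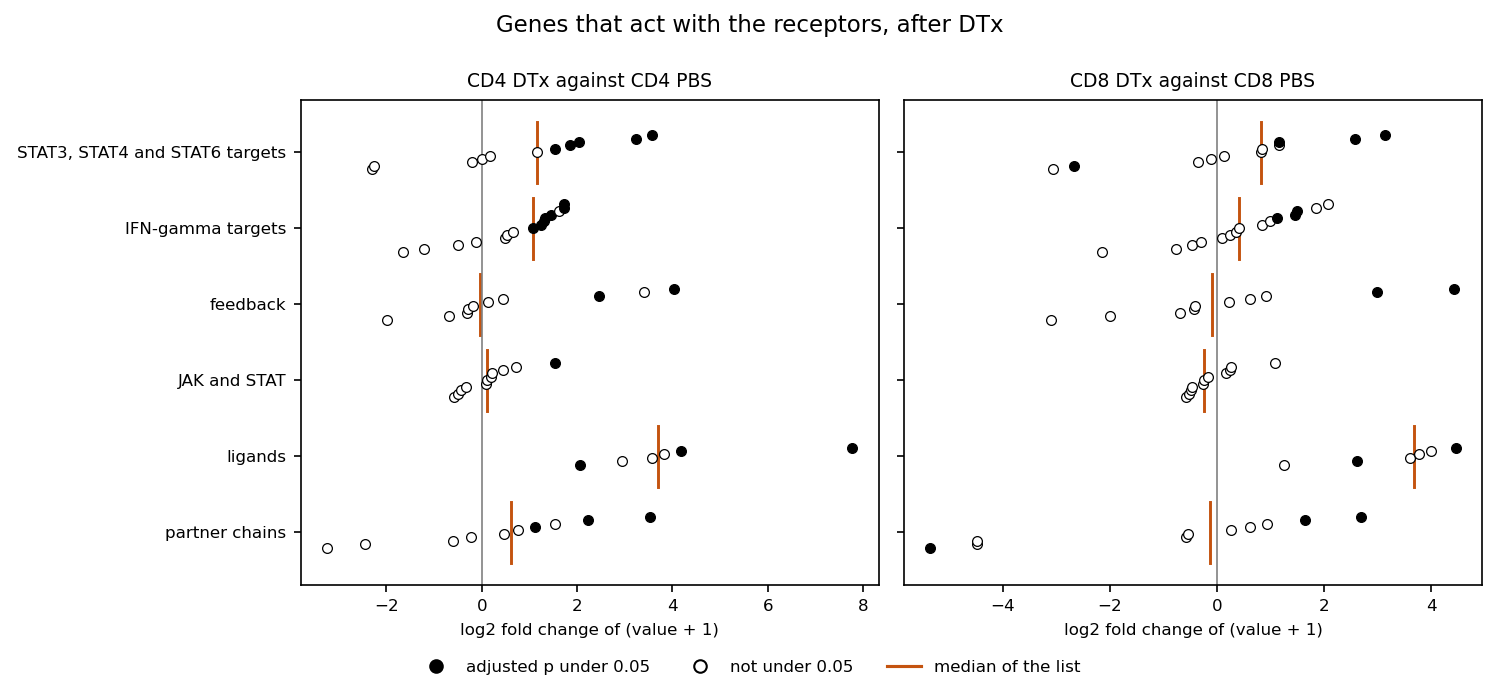
Log2 fold change of (value + 1) after DTx for the genes of 6 lists that act with the receptors, in CD4 (left) and CD8 cells (right); each point is a gene, filled where the limma adjusted p was under 0.05, and the orange line is the median of the list. The ligands lie farthest to the right, with medians of 3.70 and 3.68, and the medians of the JAK and STAT genes are 0.11 and -0.23.

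Markers of other cell types in the sorted fractions were measured beside these results. All 8 myeloid markers were in the table. Their sum ran from 157 to 2179 normalized reads in CD4 DTx, against 1241 to 1355 in CD4 PBS. In CD8 cells it ran from 2194 to 5107 after DTx, against 814 to 3149 after PBS. In Treg PBS it ran from 1214 to 3803. Markers within the CD8 sum moved apart. Lyz2 was at 1321 and 497 in CD8 PBS, against 195, 51.0 and 198 in CD8 DTx. Itgam went from 205 and 13.3 to 513, 1554 and 1606, and Cd68 from 273 and 124 to 1055, 1034 and 607. None of these passed (limma adjusted p = 0.126, 0.0678 and 0.0918). Whether myeloid cells changed in number was not tested. The NK cell markers Ncr1 and Klrb1c summed to between 45.6 and 275 in CD4 PBS, 175 to 534 in CD4 DTx, 243 to 3069 in CD8 PBS and 309.5 to 5111 in CD8 DTx. The 4 of 5 melanocyte markers in the table summed to at least 435 in a CD4 PBS library and at most 170.2 in a CD4 DTx library. Erythroid markers (3 of 5 in the table) summed to 948 to 6567 in CD4 PBS, 0 to 1175 after DTx, and in CD8 cells to 1596 to 6570 and 16.6 to 791. Of 6 stromal markers Pecam1 alone was in the table, at 7092 to 7291 in CD4 PBS and, after DTx, 1772 to 2719 in CD4 cells. By this 1 gene, RNA of stromal cells and RNA of the sorted T cells themselves cannot be told apart. The part of such cells in the levels of the 9 chains was not tested.

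Ordered by group mean, the chains fell into those highest in PBS Tconv cells and those lowest there. Il6st ran from CD4 PBS through CD8 PBS, Treg PBS and CD8 DTx to CD4 DTx, a range of 10.7 times, and the libraries of the first pair and of the last pair of groups overlapped. Il6ra had the order CD4 PBS, CD8 PBS, Treg PBS, CD4 DTx and CD8 DTx, with overlap of Treg PBS and CD4 DTx alone among neighbors, and Il21r the order CD4 PBS, CD8 PBS, Treg PBS, CD8 DTx and CD4 DTx, with a gap between CD8 PBS and Treg PBS alone. Il27ra went from CD8 PBS through CD4 PBS, CD4 DTx and Treg PBS to CD8 DTx within 1.73 times.

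In the other set, Il12rb2 and Il10ra had the order CD8 DTx, CD4 DTx, Treg PBS, CD8 PBS and CD4 PBS, over 19.8 and 5.05 times. For Il12rb2 Treg PBS stood apart from both neighbors, and for Il10ra it overlapped CD4 DTx. Il12rb1 was highest in Treg PBS, then CD4 DTx, CD8 DTx, CD8 PBS and CD4 PBS, over 11.9 times, and Ifngr1 in Treg PBS, CD8 DTx, CD4 DTx, CD8 PBS and CD4 PBS, over 5.13 times. For these 2 the first 3 groups overlapped their neighbors and stood apart from CD8 PBS.

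Across the 13 libraries the chains formed opposing sets, given here as a description over libraries that share groups. On the log2 scale Il4ra and Il6ra had a Pearson r of 0.936, Il21r and Il6st 0.925, and Il12rb1 and Il10ra 0.945, while Il6st and Il12rb2 had -0.891 and Il4ra and Ifngr1 -0.836. Among all other genes tested, those most like Ifngr1 were Pdcd1lg2 (r = 0.977), Pdcd1 (0.976) and Ncf4 (0.975), and those most like Il12rb2 were Gng2 (0.981), Lgals3 (0.962) and Anxa1 (0.962). Il4ra was most like Ikbke (0.976), Tk2 (0.970) and Pecam1 (0.963), Il6ra like Scg5 (0.957), Il6st like Gabrr2 (0.967), Il12rb1 like St6galnac6 (0.967) and Il10ra like Cobll1 (0.964). Il27ra had the weakest best match, Inafm1 (0.897), and Il21r had Slc25a26 and Hook1 (both 0.952).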

How the data were processed

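Per the labels and the study's methods, RNA of sorted cells was made into low-input libraries (SmartSeq2 in the labels, SMARTer in the methods) and sequenced on an Illumina HiSeq. The authors trimmed adaptors with Cutadapt, aligned reads with hisat2 to NCBIM37 and assigned uniquely mapped reads to genes. The read counter, the strand setting and the gene filter are not given in the sources used here, which leaves overlapping and antisense genes uncertain. The authors deposited 1 normalized signal per gene and library, named FPM, although columns summed to between 2.18e+07 and 2.75e+07. Dividing by the smallest step of a library gave whole reads for 100% of values (tolerance 0.01 of a read), and count tests used these recovered reads. Another 21 rows, with dates in place of symbols, were tested but not named.

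Log2(value + 1) was fitted with limma 3.58.1 (R 4.3.3, eBayes with trend) over all 13 libraries, with 1 mean per group, after a filter of at least 10 units in at least 2 libraries. P-values were adjusted by Benjamini-Hochberg over 12667 genes, and chains were called under 0.05. The design had been written for FPM, and its pseudocount and filter were kept, although they come to about 1 and 10 reads. Folds refer to value + 1, so for low genes they are too small. The study's own test, the DESeq2 Wald test, was run on recovered reads as an alternative (DESeq2 1.42.0), as was the quasi-likelihood test of edgeR 4.0.16. Other alternatives were pseudocounts of 0.5 and 10, no filter, equal library totals, TMM factors, only the groups compared, the replicate number as a block, leaving out each library and, chosen after seeing the data, leaving out both DTx libraries numbered 3. The limma fit was also run on simulated independent libraries, in which same-numbered libraries did not deviate together. No result here rests on that run. Replicates are biological per the methods. No molecular identifiers are mentioned, so PCR copies count as reads, and precision follows depth: 3 reads came to between 1.98 and 4.10 units.

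Deviations of same-numbered libraries from their group means correlated at 0.36, 0.207 and 0.59 between CD4 DTx and CD8 DTx, so the number was taken to pair these. Other comparisons had fewer than 3 pairs or a correlation under 0.1, and there the number was not taken to pair libraries. The 9 chains, the lists and the marker genes were chosen with earlier results of these data known. The text names the 9 chains, all partner chains, up to 4 genes of each other list by size among those called after DTx, the 3 genes most like a chain by Pearson r (for some chains only the first), and label-check genes. Socs3, Socs5, Ptpn11, Irf1, Cxcl10, Il10, Lyz2, Itgam, Cd68, Ddx3y, Xist, Ebi3, Gata3 and Batf were named after their values were seen where that rule does not cover them. Exon lengths, neighbors and promoters came from GRCm38 annotation and RefSeq. A set of markers of other cells is not reported here.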

Additional observations from a re-analysis of the deposited data

How the results depend on the processing

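Counts of called chains depended on the PBS libraries and on how the spread was shared. In CD4 DTx against CD4 PBS the 8 calls became 4 with only the groups compared and 5 over 4-fold, and 3 to 8 when 1 library was left out. In CD8 DTx against CD8 PBS the 7 calls became 2 with only the groups compared, 8 with a pseudocount of 10 and 9 with DESeq2, and 2 to 7 when 1 library was left out. Treg PBS against CD4 PBS gave 7 calls with DESeq2 and 3 to 6 when 1 library was left out, and Treg PBS against CD8 PBS gave 1 to 4 when 1 library was left out and 2 over 4-fold. CD4 DTx against Treg PBS went from 1 to 2 calls with a pseudocount of 10, DESeq2 or the replicate block, and 0 to 1 when 1 library was left out, where the call was Il6st and not Il12rb2 without CD4 DTx 3 or Treg PBS 1. CD8 DTx against Treg PBS went from 2 to 1 with a pseudocount of 0.5, TMM factors, only the groups compared, without both DTx libraries numbered 3 or over 4-fold, to 4 with DESeq2 and to 5 with the replicate block, and gave 1 to 2 when 1 library was left out. CD4 DTx against CD8 DTx went from 0 to 1 with no filter or equal library totals, to 2 with DESeq2 and to 3 with the replicate block, and gave 0 to 1 when 1 library was left out; the interaction went from 0 to 1 with DESeq2. With the replicate block the CD4 and CD8 DTx comparisons each gave 8 calls and the Treg comparisons with PBS Tconv cells 6 each (Il6st added against CD4 PBS, Il6st and Il10ra against CD8 PBS). Between Treg PBS and CD4 DTx, and between Treg PBS and CD8 DTx, 4 of 6 libraries deviated most like the library of their own number, and not every same-numbered pair correlated above 0.1. The number went with the sex of the mice in all groups and the study sorted replicates on separate days, but neither labels nor methods tie a number to a day or animal, so a pairing of these groups was not established. The causes of these changes were not tested.

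Among log2 fold changes of named genes under alternatives, 1356 kept their direction and side of the threshold, 140 fell below it, 62 passed it and 21 changed sign, none of the last from a called value. Il27ra in CD4 DTx (-0.02) became 0.008 with TMM factors, 0.016 with edgeR (with and without its filter), 0.060 without both DTx libraries numbered 3, and 0.003, 0.006 and 0.060 without CD4 PBS 2, CD4 DTx 1 or CD4 DTx 3 (leave-out range -0.132 to 0.060). Il7r in CD4 DTx became 0.030 without CD4 PBS 2 (range -0.489 to 0.030), and Il13ra1 in CD4 DTx 1.613 without CD4 PBS 2 and 0.206 without CD4 DTx 1, CD4 DTx 3 or both DTx libraries numbered 3 (range -2.813 to 1.613). Il9r in CD8 DTx became 0.292 with edgeR (with and without its filter), 0.241 with DESeq2, 0.005 with the replicate block, 1.892 without CD8 PBS 2 and 0.410 without CD8 DTx 1, CD8 DTx 3 or both DTx libraries numbered 3 (range -2.964 to 1.892), and Iigp1 in CD8 DTx 0.205 without CD8 PBS 3 (range -0.799 to 0.205). Equal library totals moved the median of all genes to -0.175 in CD4 DTx and -0.227 in CD8 DTx (from -0.037 and -0.026), and the order of group means stayed for 8 of 9 chains. With 2 PBS libraries per lineage, a chain that missed the threshold is not shown to be unchanged.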
